A study of Mus musculus with 8 samples.

Results

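Immediate early and stress response genes were examined in aortas of newborn Lox knockout (KO) and wild-type (WT) mice. The set was a list of 39 gene symbols. It held transcription factors of the AP-1, EGR, NR4A and KLF families, immediate early response proteins, phosphatases and other feedback proteins. It also held GADD45, clock and synaptic genes. The list was chosen with earlier results of these data known, so its counts describe these arrays and are not separate evidence. Of the 39 genes, 38 were measured by a probe set of their own, and all 38 were bright enough to be tested among 16635 genes. Fosl1 was measured only by a probe set shared with Ccdc85b and was not analysed here. Jund and Dusp6 had 2 probe sets each, of which the brighter was used.

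Total RNA came from the ascending aorta, taken from the valve as far as the ductus arteriosus, or the descending aorta, which ended at the diaphragm. KO pups lacked lysyl oxidase, the enzyme that begins the crosslinking of elastin and collagen, and both genotypes were on an albino C57BL/6J background at postnatal day 0. Genotype and segment made 4 groups with 2 Affymetrix arrays apiece; an array held RNA pooled from 8 pups of 1 genotype, snap frozen after dissection, so every group value has n = 2 pools. Nothing in the sources used here says which part of Lox was deleted, which sex the pups were or how long dissection took. Values are RMA signals, a background-corrected and normalised array brightness on the log2 scale, so a difference of 1 is a doubling; a gene's signal is compared only with itself, since probe sets differ in brightness.

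Immediate early genes are transcribed within minutes of a stimulus without new protein synthesis, because the factors that switch them on, such as SRF with its ternary complex partners and CREB, are already present and are activated by kinases such as ERK and p38. Many encode transcription factors that act on a later set of genes, while others encode phosphatases and RNA-binding proteins that end the response. In the vessel wall they are known to respond to growth factors, stretch, injury and inflammatory signals.

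The targeted gene was lower in every KO pool. Lox read 11.47 and 11.60 in WT ascending and 11.41 and 11.24 in WT descending pools, against 8.87 and 8.74 in KO ascending and 8.56 and 8.51 in KO descending pools. In the ascending aorta Lox fell by 2.73 on the log2 scale (SE 0.111, adjusted p = 5.35e-05). Its descending level fell by 2.80 (SE 0.111, adjusted p = 4.43e-05). All adjusted p-values are from limma with the Benjamini-Hochberg correction over all 16635 genes, and a gene is called, and said to rise or fall, at an adjusted p under 0.05. With 2 pools per group, these p-values set each difference against the spread between replicate pools, and the number of pools limits the precision.

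Markers of smooth muscle, the main cell of the wall, were bright in every pool (mean of 8 markers, 10.7 to 10.8 log2). None of the 8 was called in either segment. Among all genes 1.54% rose and 1.19% fell in the ascending aorta, and 1.46% and 0.824% in the descending. These shares apply to all the marker counts that follow. In the ascending aorta 5 of the 8 were higher in KO, while Myocd read 9.82 and 9.85 in WT against 9.43 and 9.39 in KO pools. Other cell types differed between groups. Neutrophil markers averaged 5.22 to 5.58 in WT ascending, 6.63 to 6.71 in KO ascending, 5.65 to 5.86 in WT descending and 6.10 to 6.57 in KO descending pools, and their summed linear signal was 703 to 1140, 3520 to 3560, 1100 to 1520 and 1930 to 3000 in the same order; 6 of 12 rose in the KO ascending aorta and 0 of 12 in the descending. Platelet markers averaged 7.74 to 7.94 in KO ascending pools and 7.04 to 7.18 in the other 3 groups, and 4 of 6 rose in the ascending aorta and 0 of 6 in the descending. Macrophage markers rose for 2 of 11 in each segment, and endothelial markers fell for 2 of 8 in the ascending and 1 of 8 in the descending aorta. Fat markers fell for 3 of 8 in the ascending (median difference -0.81) and 1 of 8 in the descending aorta, and lung epithelial markers for 2 of 6 in the descending aorta (median -1.09), where all 7 listed, 1 of them too dim to test, averaged 5.66 to 6.22 in WT and 4.36 to 4.46 in KO pools. Liver and plasma protein markers rose for 6 of 7 in the descending aorta (median 2.22). Both KO descending pools, at 7.31 and 8.64, lay above the 5.48 to 6.87 of the other groups, with replicate 2 the higher. In the ascending aorta 0 of 7 were called, but KO pools averaged 6.8 to 6.87 against 6.26 to 6.32 in WT. For lymphocyte markers WT ascending replicate 1 stood apart (6.11, against 4.81 to 5.40 elsewhere). The part of these cells in the results was not tested, and fewer or more cells of a type and less or more RNA per cell cannot be told apart in pooled tissue.

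Promoter sequences of the set were searched for control elements that such genes are known for. RefSeq promoter windows (GRCm38.p6, 250 bases before to 50 after each annotated start) were found for 32 of the 39 genes, with 47 windows in all; Egr1, Egr3, Ier2, Arc, Fosl1, Klf10 and Myc had none. Both strands were searched. A CArG box, the SRF site of CC, 6 bases of A or T, and GG, lay in the windows of 3 of the 32 genes (9.38%), against 1.81% of 27025 genes. The 3 were Egr2, Dusp5 and Zfp36, all of which rose in the KO ascending aorta. Ier3, Fosb, Junb, Atf3 and Dusp1 rose there too and have windows without a CArG box. The full CREB site TGACGTCA was found for Btg2, Maff and Dusp1 (9.38%, against 2.03% of all genes), and its 5-base core TGACG, which every full site also contains, for 21 of 32 (65.6%, against 23% of all genes). The EGR site GCGNGGGCG was found for 13 of 32 (40.6%, against 6.27%), and the AP-1 site TGANTCA for 1 of 32 (3.12%, against 8.97%). Of the genes with a full CREB site, Dusp1 rose in the KO ascending aorta, and Btg2 and Maff were not called there. A gene counts as holding a motif if any of its windows does. The set had 47 windows for 32 genes, against 32851 for 27025 over all genes, and more windows give more room for a match. A match is a string of letters and not a measured site. Whether any motif went with the rise was not tested.

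The 250 bases before the start are printed 5′ to 3′ on the gene's own strand for 3 genes that rose and hold a CArG box or a full CREB site, and for Ier3, the gene with the smallest adjusted p in the ascending aorta. Capitals mark CArG boxes and TGACG on either strand (CGTCA when reversed). Dusp5 lies at chr19:53528895-53529144 on the plus strand, Zfp36 at chr7:28379229-28379478 on the minus strand, Dusp1 at chr17:26508473-26508722 on the minus strand and Ier3 at chr17:35821463-35821712 on the plus strand.
Dusp5: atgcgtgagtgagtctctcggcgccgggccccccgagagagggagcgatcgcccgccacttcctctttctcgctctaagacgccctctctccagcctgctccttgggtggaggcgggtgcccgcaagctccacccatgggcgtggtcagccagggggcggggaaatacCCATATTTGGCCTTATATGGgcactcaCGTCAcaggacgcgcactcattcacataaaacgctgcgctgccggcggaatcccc
Zfp36: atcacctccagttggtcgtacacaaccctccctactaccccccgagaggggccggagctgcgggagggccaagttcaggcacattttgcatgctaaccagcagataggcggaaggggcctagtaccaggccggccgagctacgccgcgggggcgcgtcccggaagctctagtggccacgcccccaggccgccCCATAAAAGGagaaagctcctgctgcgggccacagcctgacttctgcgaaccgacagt
Dusp1: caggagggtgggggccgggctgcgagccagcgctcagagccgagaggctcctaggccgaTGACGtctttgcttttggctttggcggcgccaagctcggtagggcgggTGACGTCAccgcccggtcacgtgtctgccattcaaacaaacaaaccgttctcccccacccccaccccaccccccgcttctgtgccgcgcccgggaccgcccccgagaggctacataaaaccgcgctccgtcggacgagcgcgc
Ier3: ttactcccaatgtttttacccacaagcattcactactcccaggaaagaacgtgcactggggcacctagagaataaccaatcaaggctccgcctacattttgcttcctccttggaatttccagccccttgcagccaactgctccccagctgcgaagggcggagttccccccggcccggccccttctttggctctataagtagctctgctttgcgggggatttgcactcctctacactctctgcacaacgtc
Dusp5 has 2 CArG boxes side by side, CCATATTTGG and CCTTATATGG, whose first bases lie 82 and 72 bases before the start. The single box of Zfp36, CCATAAAAGG, begins 58 bases before its start. In Dusp1 the full CREB site begins 143 bases and a further TGACG 191 bases before the start. The Ier3 window holds neither of the capitalised motifs, which says only that these letters are not in this stretch. In Egr2 the box CCATATATGG begins 72 bases before one of its annotated starts.

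In the ascending aorta the immediate early genes were higher in KO than in WT pools in most cases. Of the 38 genes, 10 rose and 0 fell; among all genes 1.54% rose and 1.19% fell. The 10 were Egr1, Egr2, Ier3, Fosb, Junb, Atf3, Dusp1, Dusp5, Zfp36 and Myc, with rises of 1.65-fold to 3.62-fold. The median difference over the 38 was 0.53 on the log2 scale, with a range of -0.34 to 1.85, against a median of 0.01 over all genes. Both KO pools lay above both WT pools for 28 of the 38 genes (25.6% of all genes did so) and below for 2 (23.9% of all genes). The count of 10 changed when 1 pool was left out. Most of the 10 calls were lost without either WT ascending pool or without KO ascending replicate 1. A fit with 1 pool left out has fewer arrays, so a lost call does not show that a single pool carried the rise. For Junb the difference was 1.01 and 1.00 without WT ascending replicate 1 and 2, against 1.00 with all arrays. Without KO ascending replicate 1 the Junb difference was 0.81. For Atf3 it was 0.87 without WT ascending replicate 1, against 1.08, and for Dusp5 0.71 without KO ascending replicate 1, against 0.93. Dusp5, Myc and Zfp36 also lost their calls without either WT descending pool, at unchanged differences of 0.93, 0.80 and 0.73. The count was 4 when only the 4 arrays compared were fitted. That fit kept Ier3, Egr1 and Fosb, added Btg2 (adjusted p = 0.0453) and lost Junb, Egr2, Atf3, Dusp1, Dusp5, Myc and Zfp36 (adjusted p 0.0575 to 0.0932). Ier3 was called under all 16 alternative settings. Neutrophil and platelet markers were higher in the same KO ascending pools.

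The descending aorta showed the same direction with smaller differences for most genes. There 3 of 38 rose (Egr1, Ier3 and Gadd45b) and 0 fell, against 1.46% and 0.824% of all genes. The median difference was 0.28, against -0.0057 over all genes, and both KO pools lay above both WT pools for 24 genes (25.6% of all genes) and below for 8 (25.5% of all genes). The count was 1 without WT ascending replicate 1, WT ascending replicate 2 or KO descending replicate 1, and 0 without either WT descending pool or KO descending replicate 2. Liver and plasma protein markers were higher, and lung markers lower, in the same KO descending pools. The average over the segments and the comparisons between segments use the same 8 arrays and are not independent of these results. Averaged over the segments, with 4 KO against 4 WT pools, 19 rose and 1 fell, against 6.21% and 5.22% of all genes. All 4 KO pools lay above all 4 WT pools for 22 genes (8.87% of all genes) and below for Klf4 and Per1 (8.13% of all genes).

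**Figure D1:**
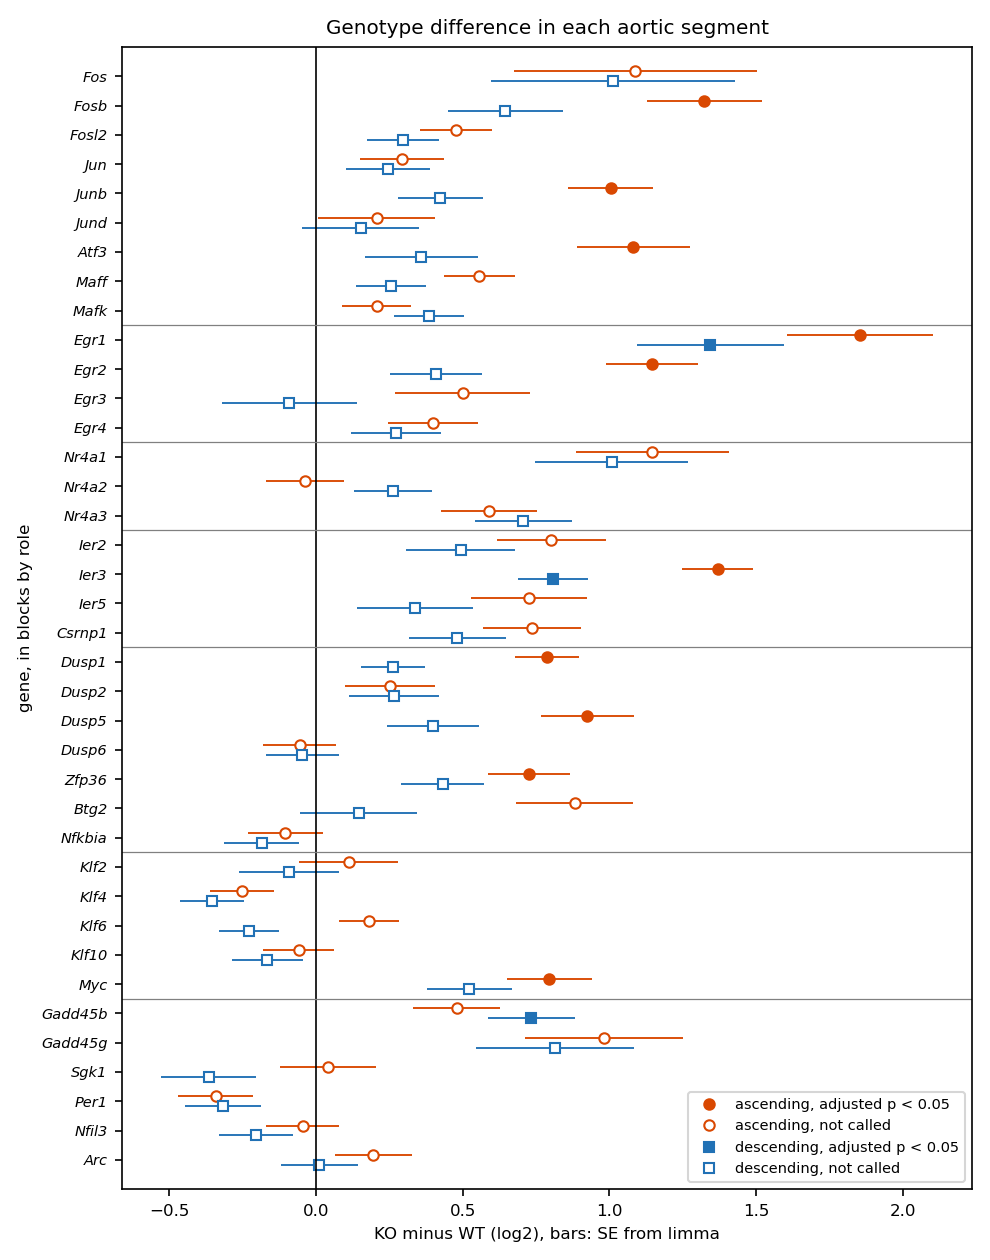
KO minus WT difference (log2, x axis) of each of the 38 genes in the ascending (circles) and descending aorta (squares), in blocks by role. Bars are limma standard errors and filled symbols have an adjusted p under 0.05. Most symbols lie to the right of 0, with Egr1 farthest right at 1.85 and 1.34, while Klf4 and Per1 lie to the left in both segments.

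The AP-1 factors are dimers of Fos, Jun and Atf proteins that bind shared DNA sites, and small Maf proteins are bZIP partners without an activation domain. All 9 of these genes were higher in KO in both segments, and Fosb, Junb and Atf3 rose in the ascending aorta. Fosb, a Fos subunit, read 4.75 and 4.86 in WT ascending pools against 6.35 and 5.91 in KO ascending pools. Its difference was 1.32 (SE 0.196, adjusted p = 0.0164), or 2.50-fold. In the descending aorta Fosb read 5.11 and 4.58 in WT and 5.55 and 5.43 in KO pools, a difference of 0.64 (adjusted p = 0.13). Its groups did not overlap in either segment, and KO descending pools lay between the WT and the KO ascending pools.

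Junb, a Jun subunit, read 5.77 and 5.75 in WT ascending and 6.96 and 6.56 in KO ascending pools, a rise of 1.00 (SE 0.144, adjusted p = 0.0151). The descending values of Junb were 6.03 and 5.84 in WT and 6.41 and 6.31 in KO, a difference of 0.42 (adjusted p = 0.166). Junb was thus highest in KO ascending, next in KO descending and lowest in WT pools of either segment. Atf3, a bZIP factor induced by many cell stresses, read 6.54 and 6.97 in WT ascending against 7.96 and 7.72 in KO ascending pools and rose by 1.08 (SE 0.193, adjusted p = 0.0282). WT and KO descending pools of Atf3 lay close together, at 7.23 and 6.89 against 7.24 and 7.60, with a difference of 0.36 (adjusted p = 0.36). Averaged over segments, Fosb (0.98, SE 0.138, adjusted p = 0.00554), Junb (0.71, adjusted p = 0.00567), Atf3 (0.72, adjusted p = 0.0145), Fosl2 (0.39, adjusted p = 0.0263) and Maff (0.41, adjusted p = 0.0205) rose. The ascending calls of Fosb and Junb were lost without either WT ascending pool or KO ascending replicate 1 (adjusted p 0.0773 to 0.0873 for Fosb and 0.0645 to 0.0822 for Junb), and that of Atf3 without any 1 of the 4 ascending pools (0.0608 to 0.146).

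Fos, the founding member of the family, was the gene least even between replicate pools. The 4 WT pools lay close together, at 5.31, 5.27, 5.23 and 5.27, and every KO pool lay above them. KO ascending pools read 5.97 and 6.79, and KO descending pools 5.54 and 6.99. The differences of 1.09 (SE 0.415, adjusted p = 0.204) and 1.01 (SE 0.415, adjusted p = 0.237) did not pass, nor did the average of 1.05 (adjusted p = 0.0538), which without KO descending replicate 1 was 1.41 (adjusted p = 0.00944). Without KO descending replicate 2, the pool with the high liver and plasma protein signal, the descending difference was 0.29, and without KO descending replicate 1 it was 1.74; the ascending difference was 0.68 without KO ascending replicate 2. Fosl2 read 7.23 and 7.39 in WT ascending, 7.83 and 7.74 in KO ascending, 7.35 and 7.07 in WT descending and 7.51 and 7.51 in KO descending pools. Maff read 6.11, 6.09, 6.77, 6.54, 6.11, 6.03, 6.43 and 6.23 in the same order of groups. Both had all KO pools above all WT pools, and their averaged calls were lost in 6 and 5 of the 8 fits with 1 array left out (adjusted p 0.0553 to 0.0784 and 0.058 to 0.0659); for Fosl2 the fits that kept the call left out WT ascending replicate 2 or WT descending replicate 1, and for Maff WT ascending replicate 1, KO ascending replicate 2 or KO descending replicate 2. The averaged call of Atf3 was lost without KO ascending replicate 1 (adjusted p = 0.0504). Jun, Jund and Mafk were not called, with ascending differences of 0.29, 0.21 and 0.21.

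The EGR proteins are zinc finger factors that read mitogen and stretch signals in vascular cells, and Egr1 had the largest difference of the whole set. Egr1 read 7.33 and 7.03 in WT ascending and 8.96 and 9.12 in KO ascending pools, 3.62-fold higher (log2 1.85, SE 0.25, adjusted p = 0.0131). In the descending aorta it read 6.85 and 7.21 in WT and 7.96 and 8.79 in KO pools, 2.54-fold higher (log2 1.34, SE 0.25, adjusted p = 0.0388). The 4 KO pools all lay above the 4 WT pools, with KO descending replicate 1 the lowest of them. The ascending call was lost without WT ascending replicate 2, KO ascending replicate 1 or KO ascending replicate 2 (adjusted p 0.0604 to 0.0774). The descending call was lost in 7 of the 8 fits with 1 array left out (0.0537 to 0.218), every one but that without KO descending replicate 1, as well as with no filter on dim genes (0.0572) and with only the 4 arrays compared (0.0864). Without KO descending replicate 2 the difference was 0.93 (adjusted p = 0.104). The averaged rise of 1.60 (SE 0.177, adjusted p = 0.00236) was called under every alternative.

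Egr2 read 5.91 and 5.58 in WT ascending and 6.70 and 7.08 in KO ascending pools, a rise of 1.15 (SE 0.157, adjusted p = 0.0134). Its descending pools read 5.86 and 5.76 in WT and 6.26 and 6.18 in KO, a difference of 0.41 (adjusted p = 0.21). KO ascending pools thus stood above all others, and KO descending pools above all WT pools. The ascending call was lost without WT ascending replicate 2 (adjusted p = 0.0741) or KO ascending replicate 2 (adjusted p = 0.0538), and the averaged rise of 0.78 (SE 0.111, adjusted p = 0.00574) was called under every alternative. Egr3 was high in 1 KO ascending pool only, at 6.01 against 5.15 in its replicate and 5.06 to 5.23 elsewhere, and was not called; without KO ascending replicate 2 its ascending difference was 0.93 (adjusted p = 0.0303). Egr4 differed by 0.40 and 0.27 in the 2 segments and was not called.

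NR4A proteins are orphan nuclear receptors whose activity is set by their abundance. None of the 3 was called within a segment, while Nr4a1 and Nr4a3 rose on average over the segments. Nr4a1 read 7.96 and 7.49 in WT ascending, 8.85 and 8.90 in KO ascending, 7.61 and 7.09 in WT descending and 8.0 and 8.72 in KO descending pools. The differences were 1.15 (SE 0.26, adjusted p = 0.0584, and 0.0402 without either KO descending pool) and 1.01 (SE 0.26, adjusted p = 0.0882), and the average was 1.08 (SE 0.184, adjusted p = 0.0102). All 4 KO pools of Nr4a1 were above all WT pools, although KO descending replicate 1 exceeded WT ascending replicate 1 by little; without KO descending replicate 2 the descending difference was 0.65 (adjusted p = 0.284). Nr4a3 read 5.82, 5.41, 6.33, 6.07, 5.45, 5.18, 6.02 and 6.03 in that order of groups. Its average difference was 0.65 (SE 0.116, adjusted p = 0.012), with all KO above all WT pools.

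Nr4a2 differed from its relatives in where it was called. It read 6.56 and 6.79 in WT ascending and 5.89 and 5.95 in WT descending pools, and was the only one of the 38 genes called between segments in WT (0.75 higher in ascending, SE 0.133, adjusted p = 0.0337), where 0.511% of all genes were called higher. KO pools of Nr4a2 read 6.68 and 6.58 in ascending and 6.33 and 6.04 in descending aorta, and the genotype differences were -0.04 and 0.26. The call was lost without any 1 of the 4 WT pools or either KO ascending pool (adjusted p 0.0551 to 0.192) and with only the 4 arrays compared (0.0562).

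Among the immediate early response proteins, Ier3, a regulator of cell survival and ERK signalling, had the firmest difference of the set. It read 7.46 and 7.64 in WT ascending against 9.04 and 8.80 in KO ascending pools, and 7.74 and 7.64 in WT descending against 8.49 and 8.50 in KO descending pools. The rise was 2.58-fold in the ascending (log2 1.37, SE 0.12, adjusted p = 0.00374) and 1.75-fold in the descending aorta (log2 0.81, SE 0.12, adjusted p = 0.0209). WT pools of both segments lay together, KO descending pools stood above them, and KO ascending pools were highest. The descending call was lost without any 1 of the 4 descending pools (adjusted p 0.0866 to 0.119), and the ascending call had an adjusted p of 6.76e-05 to 0.0373 over the alternatives. Averaged over segments Ier3 rose by 1.09 (SE 0.0847, adjusted p = 0.000603), the smallest adjusted p among the 38 genes.

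Ier2, Ier5 and Csrnp1, which encode nuclear proteins, rose only in the average over segments, so that all 4 genes of this role were called there. Ier2 read 6.23 and 6.14 in WT ascending, 6.90 and 7.08 in KO ascending, 6.35 and 5.83 in WT descending and 6.41 and 6.77 in KO descending pools, with an average difference of 0.65 (SE 0.131, adjusted p = 0.0185). Ier5 read 5.47, 5.50, 6.52, 5.91, 5.87, 5.63, 6.23 and 5.94 in that order, with an average difference of 0.53 (SE 0.14, adjusted p = 0.045). Csrnp1 read 6.08, 6.14, 6.92, 6.77, 6.06, 5.52, 6.23 and 6.32, with an average difference of 0.61 (SE 0.118, adjusted p = 0.0155). In all 3 the KO pools lay above the WT pools of both segments, but the lowest KO pool exceeded the highest WT pool by less than 0.1 in each. With 1 array left out, the averaged call of Ier2 was lost without WT ascending replicate 2, KO ascending replicate 2 or KO descending replicate 2 (adjusted p 0.0538 to 0.0607), that of Csrnp1 without KO ascending replicate 1 (0.0527) and that of Ier5 without any pool but KO ascending replicate 2 (0.0603 to 0.131) and with no filter on dim genes (0.0624).

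**Figure D2:**
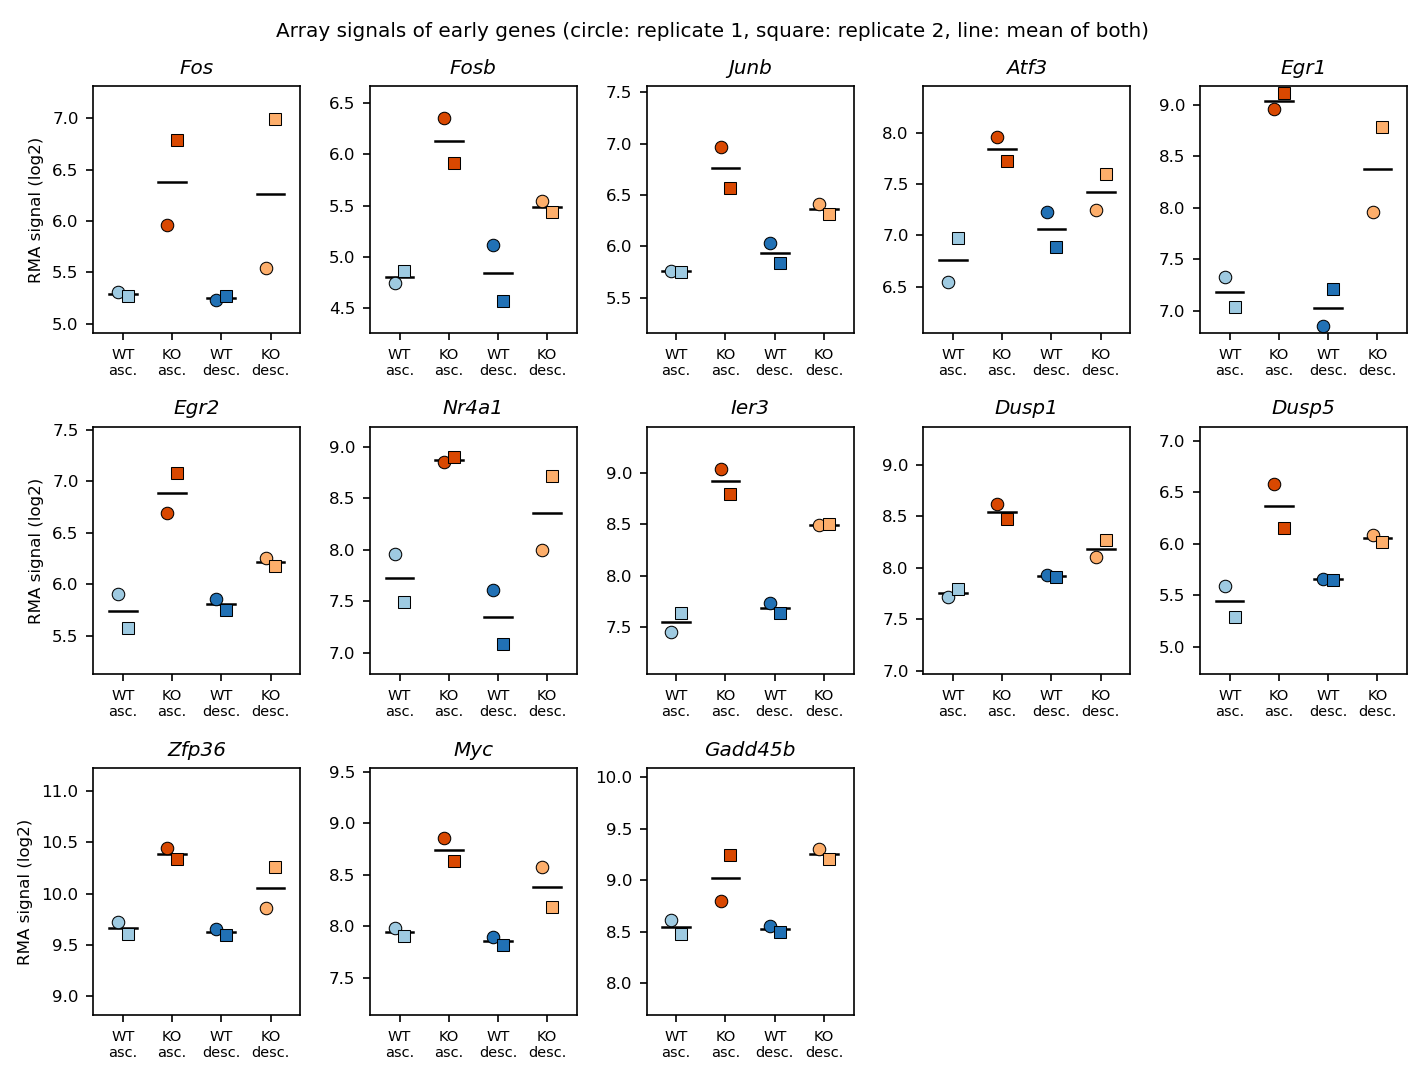
RMA signal (log2, y axis) of 13 early genes on each array, by group (x axis); circles are replicate 1, squares replicate 2 and lines the mean of both. All y axes span the same number of log2 units but start at different values above 0. KO ascending pools are highest for most genes, Ier3 shows little spread within groups, and Fos shows pools of 5.54 and 6.99 within KO descending.

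Feedback proteins limit the same signals. Dusp1, a phosphatase of p38 and JNK, read 7.72 and 7.80 in WT ascending and 8.62 and 8.47 in KO ascending pools, and rose by 0.79 (SE 0.109, adjusted p = 0.0138). Dusp5, a nuclear ERK phosphatase, read 5.59 and 5.29 against 6.58 and 6.15 and rose by 0.93 (SE 0.158, adjusted p = 0.0255). Zfp36 (tristetraprolin), which binds AU-rich RNAs and speeds their decay, read 9.72 and 9.60 against 10.44 and 10.33 and rose by 0.73 (SE 0.141, adjusted p = 0.0382). In each of the 3 genes both KO ascending pools lay above every WT pool.

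Their descending differences were smaller and were not called. Dusp1 read 7.93 and 7.91 in WT and 8.10 and 8.27 in KO descending pools (0.26, adjusted p = 0.241). Dusp5 read 5.66 and 5.65 against 6.09 and 6.02 (0.40, adjusted p = 0.224). Zfp36 read 9.66 and 9.60 against 9.86 and 10.26 (0.43, adjusted p = 0.154). All 3 rose on average over the segments, Dusp1 by 0.53 (SE 0.0772, adjusted p = 0.00633), Dusp5 by 0.66 (SE 0.112, adjusted p = 0.00989) and Zfp36 by 0.58 (SE 0.0997, adjusted p = 0.0105), and these averaged calls held under every alternative. The ascending calls did not: that of Dusp1 was lost without either WT ascending pool or KO ascending replicate 1 (adjusted p 0.0654 to 0.0819), that of Dusp5 without those or either WT descending pool (0.0511 to 0.128), and that of Zfp36 without any ascending or WT descending pool (0.0676 to 0.169) and with no filter on dim genes (0.0544).

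Other feedback genes were not called in either segment. Btg2, an antiproliferative protein that recruits deadenylases, differed by 0.88 in the ascending (SE 0.2, adjusted p = 0.0584, and 0.0221 without either KO descending pool) and 0.14 in the descending aorta, where KO replicate 2 exceeded replicate 1 by 0.67. Dusp2 differed by 0.25 and 0.26. Dusp6, the cytoplasmic ERK phosphatase often used as a readout of ERK output, differed by -0.06 and -0.05, and its second probe set by 0.03 and 0.30. Nfkbia, the inhibitor that holds NF-kB in the cytoplasm, differed by -0.10 and -0.19.

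In the KLF and Myc group the genes did not move together. Myc, a growth regulator, read 7.99 and 7.91 in WT ascending, 8.86 and 8.63 in KO ascending, 7.90 and 7.82 in WT descending and 8.57 and 8.18 in KO descending pools, with no overlap between genotypes. It rose by 0.80 in the ascending aorta (SE 0.146, adjusted p = 0.0312) and by 0.66 on average (SE 0.103, adjusted p = 0.00747), while the descending difference of 0.52 had an adjusted p of 0.106. Klf4, a repressor of the smooth muscle contractile programme and a flow-responsive endothelial factor, read 8.36, 8.31, 8.08, 8.09, 8.29, 8.12, 7.93 and 7.78 in the same order and was the only one of the 38 that fell, by 0.30 on average (SE 0.0769, adjusted p = 0.0391). Of 8 endothelial markers, 4 fell on average as well, against 5.22% of all genes, and their part in the Klf4 value was not tested. Klf2, Klf6 and Klf10 had differences between -0.23 and 0.18 and were not called. The ascending call of Myc was lost without any ascending or WT descending pool (adjusted p 0.0586 to 0.155), and with only the 4 arrays compared (0.0601). The averaged call of Klf4 was lost without any 1 of the 8 pools (0.0555 to 0.128), with no filter on dim genes (0.0599) and with arrays shifted to 1 median (0.0895).

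GADD45 proteins bind a kinase upstream of p38 and JNK, and in this family the KO ascending pools did not stand above the KO descending pools. Gadd45b read 8.61 and 8.47 in WT ascending, 8.80 and 9.24 in KO ascending, 8.55 and 8.49 in WT descending and 9.31 and 9.21 in KO descending pools. It was the only gene of the set called in the descending aorta (0.73, SE 0.149, adjusted p = 0.0472) and not in the ascending (0.48, adjusted p = 0.127), but its interaction did not pass. Gadd45g read 6.18, 6.85, 7.10, 7.89, 6.67, 6.68, 7.44 and 7.54 in that order, with all KO above all WT pools. Averaged over segments Gadd45b rose by 0.61 (SE 0.105, adjusted p = 0.0107) and Gadd45g by 0.90 (SE 0.191, adjusted p = 0.0214). The descending call of Gadd45b was lost without either WT ascending pool or any 1 of the 4 descending pools (adjusted p 0.0657 to 0.215), with no filter on dim genes (0.0698), with arrays shifted to 1 median (0.0504) and with only the 4 arrays compared (0.0504); the averaged call of Gadd45g was lost without WT ascending replicate 1 or any 1 of the 4 descending pools (0.0511 to 0.0721).

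The remaining genes were not called. The clock gene Per1 differed by -0.34 and -0.32 (average -0.33, adjusted p = 0.0526), with all KO pools below all WT pools. Sgk1, a kinase induced by glucocorticoids and osmotic stress, differed by 0.04 and -0.37. Nfil3, a bZIP repressor, differed by -0.05 and -0.20, and Arc, a synaptic immediate early gene, by 0.19 and 0.01.

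Across the set, the order of the groups was the same for most genes. The KO ascending mean was the highest of the 4 group means for 28 of 38 genes (73.7%, against 24.8% of all genes), and 23 (60.5%, against 11.9%) had KO ascending above KO descending and KO descending above both WT groups. The median deviation of the 38 genes from their own 8-array means was -0.19 and -0.19 in WT ascending, -0.11 and -0.34 in WT descending, 0.0046 and 0.06 in KO descending and 0.43 and 0.27 in KO ascending pools. The genotype differences of the 2 segments, which share no arrays, had a Pearson correlation of 0.842 across the 38 genes and 0.597 across all genes, which are not independent replicates, and 33 genes (86.8%, against 67.6%) had the same sign in both.

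**Figure D3:**
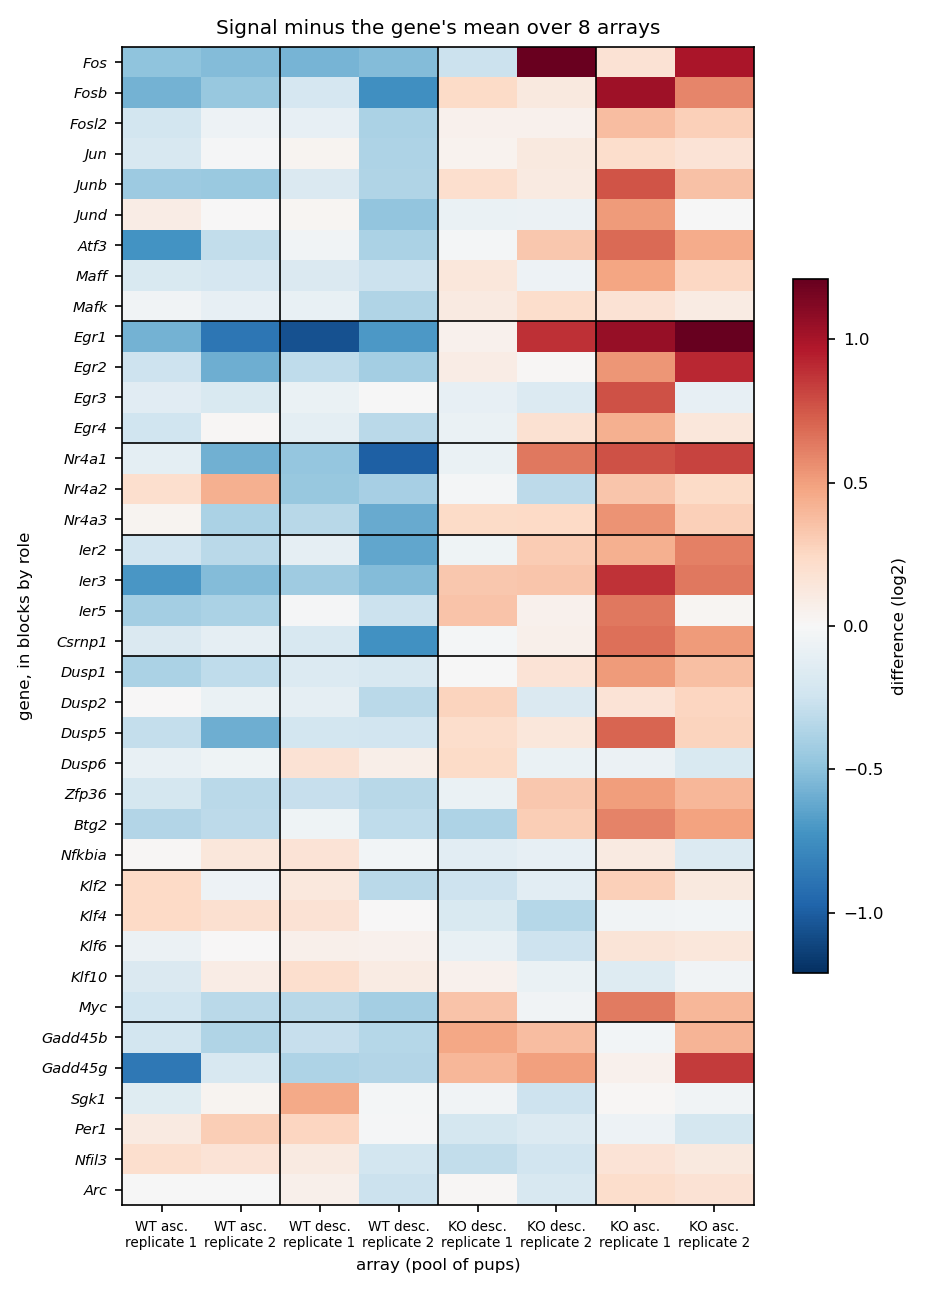
Signal of each of the 38 genes minus its mean over the 8 arrays (log2, colour scale centred on 0), with genes in blocks by role on the y axis and arrays on the x axis. Red cells, above the gene's mean, gather in the 2 KO ascending arrays on the right, and blue cells in the 4 WT arrays on the left. In the KLF and stress blocks Myc, Gadd45b and Gadd45g are blue in all 4 WT arrays, while most other genes do not follow this pattern.

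The difference between segments was not called for any of these genes in KO or in the interaction. The KO minus WT difference was larger in the ascending aorta for 31 of 38 genes (81.6%, against 50.5% of all genes). In the interaction limma called 0 of 38 genes and 0% of all genes; 9 of 38 (23.7%) had an unadjusted p under 0.05, against 5.6% of all genes. Egr2 had an interaction of 0.74 (SE 0.222), Btg2 of 0.74 (SE 0.282), Atf3 of 0.72 (SE 0.273), Ier3 of 0.56 (SE 0.169) and Dusp1 of 0.52 (SE 0.154), and the smallest adjusted p was 0.775. Between segments within KO, 34 of 38 genes were higher in the ascending segment (49.6% of all genes were) and the median difference was 0.32. Of these genes 15 (39.5%, against 12.1% of all genes) had an unadjusted p under 0.05 and 0 were called, where 1.48% of all genes were called; Egr2 came nearest, at 0.67 (SE 0.157, adjusted p = 0.0976). In WT the median was 0.04 and 1 gene was called, where 1.48% of all genes were. A larger effect in the ascending aorta is thus a count of directions and not a called difference.

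Wide gaps between replicate pools were more frequent among these genes than over all genes in 3 of the 4 groups. Gaps of more than 0.5 log2 between the 2 pools of a group were seen for 1 of 38 genes in WT ascending (2.63%), 5 in KO ascending (13.2%), 5 in WT descending (13.2%) and 4 in KO descending aorta (10.5%), against 4.66%, 4.56%, 3.32% and 4.34% of all genes. In KO descending, replicate 2 was higher for 20 of 38 genes (52.6%, against 45.9% of all genes). There it exceeded replicate 1 by 1.45 for Fos, 0.82 for Egr1, 0.72 for Nr4a1, 0.67 for Btg2 and 0.40 for Zfp36, and was lower by 0.44 for Dusp2, 0.39 for Myc and 0.31 for Dusp6, while Ier3, Fosl2, Jund and Nr4a3 differed by less than 0.01. That pool also had more neutrophil and liver marker signal than its replicate, and the part of this in the gaps was not tested. In KO ascending, replicate 2 was higher by 0.82 for Fos and 0.79 for Gadd45g and lower by 0.87 for Egr3 and 0.61 for Ier5. In WT descending, replicate 2 was higher for only 5 of 38 genes (13.2%, against 41.3% of all genes), and the median gap was -0.20, against -0.04 over all genes.

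The upstream kinases and transcription factors that switch these genes on are mostly regulated as proteins. Of 30 such genes listed 23 were tested. Of these, limma called 0 in either segment and 6 on average over the segments. Calls within a segment were few over all genes as well. There 1.54% rose and 1.19% fell in the ascending aorta, and 1.46% and 0.824% in the descending. At an unadjusted p under 0.05 there were 5 (21.7%, against 19.1% of all genes) in the ascending and 8 (34.8%, against 18.8%) in the descending aorta, and the trended robust prior called 2 in each. Their median difference was -0.11 in the ascending and -0.05 in the descending aorta. Srf, the factor that binds CArG boxes, differed by 0.34 (adjusted p = 0.265) and 0.48 (adjusted p = 0.143), and its coactivator Mrtfb by -0.41 (adjusted p = 0.08) and -0.25. The other 6 with the smallest p in the ascending aorta were Mef2a (-0.38), Rps6ka5 (-0.38), Map2k2 (0.30), Atf2 (-0.28), Elk3 (-0.21) and Mrtfa (-0.21). Averaged over segments, Srf (0.41, adjusted p = 0.0433) and the ERK kinase Map2k2 (0.27, adjusted p = 0.0425) rose, and Rps6ka5 (-0.46, adjusted p = 0.0206), Mef2a (-0.40, adjusted p = 0.0145), Mrtfb (-0.33, adjusted p = 0.0253) and Atf2 (-0.28, adjusted p = 0.0496) fell; over all genes 6.21% rose and 5.22% fell on average.

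Other genes known to be induced early, and further feedback regulators, were examined beside the set. This list, like the set, was chosen with earlier results of these data known, so its counts describe these arrays and are not separate evidence. Of 62 tested from a list of 71, 48 (77.4%, against 52.1% of all genes) were higher in KO than WT in the ascending aorta, and 12 rose and 0 fell there (1.54% and 1.19% of all genes). In the descending aorta 6 rose and 0 fell (1.46% and 0.824%), and on average 15 rose and 2 fell (6.21% and 5.22%). Ptgs2, the inducible cyclooxygenase, read 5.24 and 5.59 in WT ascending and 8.39 and 8.33 in KO ascending pools, 7.71-fold higher (log2 2.95, SE 0.181, adjusted p = 0.000551). In the descending aorta Ptgs2 read 4.87 and 4.93 in WT and 6.32 and 5.78 in KO pools (1.15, adjusted p = 0.0266), and its interaction of 1.80 (SE 0.256, adjusted p = 0.439) was not called. KO ascending pools of Ptgs2 were 2.31 above KO descending pools (adjusted p = 0.00159), a called segment difference that none of the 38 genes showed in KO.

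Thbs1, a matricellular protein that activates latent TGF-beta, read 9.18 and 8.72 in WT ascending against 10.48 and 10.56 in KO ascending pools (1.57, SE 0.168, adjusted p = 0.00579). Its descending rise was 1.12 (adjusted p = 0.0214), from 8.80 and 8.64 in WT to 9.99 and 9.70 in KO. Hbegf, an EGF receptor ligand, read 6.95 and 7.23 against 8.26 and 8.27 in the ascending aorta, a rise of 1.17 (SE 0.127, adjusted p = 0.00591). Plaur (urokinase receptor, 0.98), the neutrophil chemokines Cxcl1 (1.56) and Cxcl2 (1.26), and the kinases Pim1 (0.63) and Plk3 (0.67) also rose in the ascending aorta, with adjusted p of 0.0131 to 0.0258, where 6 of 12 neutrophil markers rose too. The list's count of 12 was 4 without either WT ascending pool or KO ascending replicate 1, 6 without KO ascending replicate 2 and 7 with only the arrays compared. Its descending count of 6 was 3 without either WT ascending pool, 2 without either KO ascending pool or KO descending replicate 2, 1 without WT descending replicate 1 and 0 without WT descending replicate 2 or KO descending replicate 1. The ascending calls of Ptgs2, Thbs1 and Hbegf held with each array left out. Those of Pim1 and Plk3 were lost without any 1 of the 4 ascending pools, that of Plaur without either WT ascending pool or KO ascending replicate 1, that of Cxcl1 without WT ascending replicate 2 and that of Cxcl2 without WT or KO ascending replicate 1 (adjusted p 0.0618 to 0.115). The descending call of Thbs1 was lost without any 1 of the 4 descending pools, and that of Ptgs2 without any but KO descending replicate 2 (0.051 to 0.161). With only the arrays compared, the ascending calls of Cxcl1, Cxcl2, Pim1 and Plk3 (0.0593 to 0.0716) and the descending call of Ptgs2 (0.0617) were lost.

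**Figure D4:**
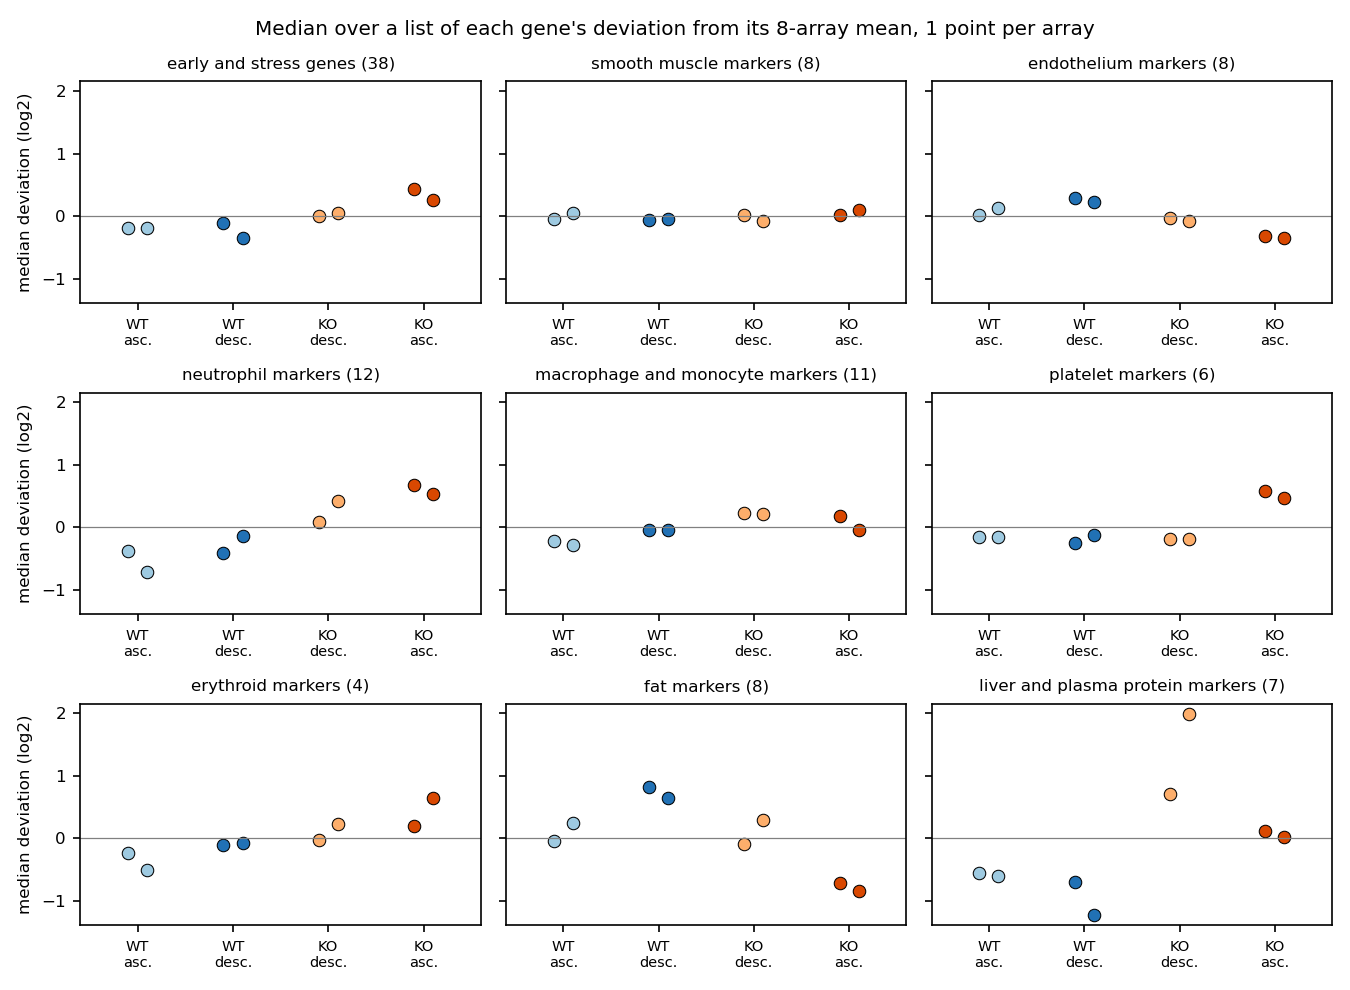
Median over a list of each gene's deviation from its 8-array mean (log2, y axis), 1 point per array, for the 38 early and stress genes and 8 lists of cell type markers (number of genes in brackets), by group (x axis). The early genes run from -0.34 in a WT descending pool to 0.43 in a KO ascending pool. Smooth muscle markers stay near 0, and neutrophil markers follow a like order of groups. Platelet markers are high only in KO ascending pools. Liver markers are highest in KO descending pools and lie above WT in KO ascending pools as well.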

How the data were processed

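Values are log2 RMA signals deposited by the authors, made in Affymetrix Expression Console, per the submitters' processing notes; its version is not given in the sources used. Per the labels' protocols, NuGEN kits were used to amplify 50 ng of RNA per pool and label it with biotin. The unit was checked on the values: medians of the 8 arrays were 5.11 to 5.19, and replicate arrays correlated across genes (Pearson) at 0.988 to 0.992.

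Of 41345 probe sets, 23521 had exactly 1 symbol in the platform table, 1814 several and 16010 none. The brightest probe set of each of 22180 genes was kept, and genes with a mean under the 25th percentile (4.11 log2) were left out, which left 16635. limma 3.58.1 (R 4.3.3) was fitted with 1 coefficient per group over all 8 arrays (4 residual and 4.51 prior degrees of freedom), with Benjamini-Hochberg adjustment over the 16635 genes. The method was tested on simulated data. Other settings were a filter at the 50th percentile or none, cyclic loess or a shift to 1 median between arrays, a trended robust prior, a gene's mean over its probe sets, a block for the replicate number, a fit of only the arrays compared, and leaving out each array in turn; there the lone array of a group is assumed to vary like the other groups.

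Values of all arrays were given for genes of the set called in at least 1 of 6 comparisons or differing by 1 log2 or more between genotypes in a segment; other genes were given by difference. Up to 8 genes of each further list were named by smallest p in the ascending aorta. The members and lists were chosen with earlier results of these data known. Same-numbered replicates were treated as unpaired, because no label ties a number to a litter or day. Promoter windows are RefSeq (GRCm38.p6); motifs were searched with python 3.11.15 and figures drawn with matplotlib 3.10.9.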

Additional observations from a re-analysis of the deposited data

How the results depend on the processing

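Direction was followed for genes of the set that were called or differed by 1 log2 or more between genotypes in a segment. Lox and the called early-induced genes named above were followed as well. None of these values changed direction. Other named genes were not followed, so a small difference of theirs may not keep its sign. Of 791 alternative values, 634 stayed on the same side of the threshold, 152 lost the call and 5 gained it; 13 of the 34 calls among the 38 genes held under all alternatives run for them: Ier3 in the ascending aorta, and Fosb, Junb, Egr1, Egr2, Nr4a1, Nr4a3, Ier3, Dusp1, Dusp5, Myc, Zfp36 and Gadd45b averaged over segments. The ascending count of 10 was 17 with a trended robust prior, 4 with only the arrays compared, and 1 to 12 with 1 array left out. The descending count of 3 was 6 with a trended robust prior, 1 without a filter on dim genes, 5 with the stricter filter (50th percentile), and 0 to 2 with 1 array left out. The WT segment count of 1 was 0 with only the arrays compared and 0 to 1 with 1 array left out, and the KO segment count of 0 was 1 with a trended robust prior and 0 to 1 with 1 array left out. The averaged count of 20 was 14 to 23, and the interaction count was 0 throughout; only the arrays compared was not run for these. Upstream genes called went from 0 to 1 in the ascending and 2 in the descending aorta with the stricter filter, and to 2 in each with a trended robust prior. The early-induced count of 12 in the ascending aorta was 7 with only the arrays compared and 4 to 11 with 1 array left out; that of 6 in the descending was 3 with no filter, 1 with only the arrays compared, and 0 to 3 with 1 array left out. The cause of these shifts was not tested. Where arrays were left out, the fit also had fewer arrays.

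With the replicate number as a block, the counts were again 10 in the ascending and 3 in the descending aorta, but not of the same genes: Zfp36 (adjusted p = 0.055) left and Maff (0.0466) entered in the ascending, and Gadd45b (0.0664) left and Nr4a3 (0.0499) entered in the descending aorta. On average over segments Fos entered (0.0309). The block gave 0 between segments in WT, where Nr4a2 left (0.0525), and 3 for the early-induced list in the descending aorta. Same-numbered deviations correlated at 0.126 between the ascending groups and 0.115 between the descending groups, and at -0.0954 to -0.0225 in the other 4 pairs of groups.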
